A study of Homo sapiens with 12 samples.

Results

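Oxidative phosphorylation genes are described here in Ewing sarcoma cell lines that resist YK-4-279 and in their parents. Members were chosen by symbol: the genes for the subunits of complexes I to V, named NDUFA to NDUFV, SDHA to SDHD, UQCR, CYC1, COX4 to COX8 and ATP5 followed by the letters and digits of a subunit, and the 13 protein genes of mitochondrial DNA. The symbols took in 147 of the 56609 named genes, of which 82 were nuclear subunit genes, 13 were mitochondrially encoded and 52 were pseudogenes. By complex, the nuclear genes numbered 36 (I), 4 (II), 10 (III), 15 (IV) and 17 (V), and the mitochondrial genes 7 (I), 1 (III), 3 (IV) and 2 (V). NDUFA4, named for complex I, was placed in complex IV, where its protein is found. The pattern misses a few subunit genes, among them COX4I1 and NDUFAB1.

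The study sequenced RNA from A4573 and TC-71, 2 lines of Ewing sarcoma, a bone and soft tissue cancer that depends on the EWS-FLI1 fusion. YK-4-279 was designed to keep EWS-FLI1 from its partner RNA helicase A. A4573-R and TC-71-R are labelled as treated with YK-4-279, at 650 and 400 uM, a unit kept as the labels write it, and A4573 parental and TC-71 parental with DMSO, the solvent. The 4 groups hold 3 libraries each. All were grown in RPMI with fetal bovine serum and HEPES. Each resistant line is 1 derivative of its parent and was collected in drug, so resistance and drug exposure cannot be told apart. No label states that a group's 3 libraries are separate cultures, so the p-values measure the spread between these libraries only.

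Complexes I to IV of the inner mitochondrial membrane pass electrons from NADH and succinate to oxygen, and all but complex II pump protons as they do so. Complex V, the ATP synthase, uses the proton gradient to make ATP. Complex II is built from nuclear genes alone, while the other complexes combine nuclear subunits with a few made inside the mitochondrion, whose mRNAs are cut from long transcripts of mitochondrial DNA.

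Named genes held 44.0 to 62.1 M reads (M, 1000000) per library. All entries, with and without a gene name, held 65.0 to 99.8 M, and 1 read was worth 0.0103 to 0.0148 CPM. CPM are counts per 1000000 reads of the library, on the authors' scale, and a level in CPM depends on gene length. In effect that scale multiplied the read total of each library by a factor of 0.894 to 1.06. Of 7 Ewing sarcoma markers, NKX2-2, NR0B1, STEAP1, FLI1 and LIPI were between 11.1 and 249 CPM in every library. CCK was between 67.4 and 211 CPM in A4573 libraries and at most 0.485 CPM in TC-71 libraries, and CD99, a defining marker, was at or near 0 in all 12 libraries, at most 0.0145 CPM. The reason for the CD99 value was not tested, and it is not read as absence of CD99 from these lines. Markers of blood cells, endothelium and epithelium reached at most 1.62 CPM in any library. All 76 nuclear subunit genes and all 13 mitochondrial genes with at least 1 CPM in 3 libraries passed that level in every library. The 6 nuclear genes below it were ATP5L2, COX6A2, COX6B2, COX7A1, COX7B2 and COX8C. Of the 52 pseudogenes, 27 were at 0 in every library and only UQCRFS1P1 was tested.

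Nuclear subunit mRNAs were mostly higher in both resistant lines. In TC-71-R, 54 of the 76 tested genes rose, 12 fell and 10 did not pass, with a median log2 fold change of 0.29. Over all 14335 tested genes, 38.8% rose and 39.6% fell (78.5% called in all), and the median was -0.0033. In A4573-R, 41 of the 76 rose, 11 fell and 24 did not pass, with a median of 0.14, against 38.3% higher and 34.1% lower of all tested genes (72.5% called in all) and a median of 0.019. Calls are adjusted p-values under 0.05 from limma on log2(CPM + 1), Benjamini-Hochberg adjusted over all tested genes. The changes were small: NDUFS5 in TC-71-R was the 1 nuclear gene called at 2-fold or more, where 10.3% of all genes were in TC-71-R and 5.72% in A4573-R. Libraries of the 2 groups did not overlap for 65 of the 76 genes in TC-71-R and for 54 in A4573-R. Over all tested genes the groups did not overlap for 81.1% in TC-71-R and 74.6% in A4573-R, so these counts are near the background.

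The calls in the 2 lines were not one list. Of the 76 genes, 31 were higher in both lines and 3 lower in both, COX5A, NDUFA12 and NDUFS8. In 4 the mRNA fell in TC-71-R and rose in A4573-R (ATP5G2, COX6A1, COX6B1 and NDUFC1), and in 7 it rose in TC-71-R and fell in A4573-R (ATP5F1, ATP5J, NDUFA10, NDUFA5, NDUFB2, NDUFS3 and NDUFV3). Of all tested genes, 16.4% were called higher in both lines and 14.8% lower in both, 14.3% lower in TC-71-R and higher in A4573-R, and 11.9% higher in TC-71-R and lower in A4573-R. A further 16 were called higher and 5 lower in TC-71-R and did not pass in A4573-R, 6 were called higher and 1 lower in A4573-R and did not pass in TC-71-R, and ATP5E, ATP5G1 and NDUFA9 passed in neither. NDUFA12, NDUFS8, NDUFA10, ATP5J, NDUFV3, ATP5A1 and ATP5B are named here after their values were seen. Tested directly, the change in TC-71-R exceeded that in A4573-R for 41 of the 76 and was below it for 13, where 37.9% and 40.2% of all genes did (78.1% called). Scaled over named genes alone, the same contrast gave 38 higher and 21 lower, and with mitochondrial genes also left out of the scaling, 38 and 22.

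**Figure D1:**
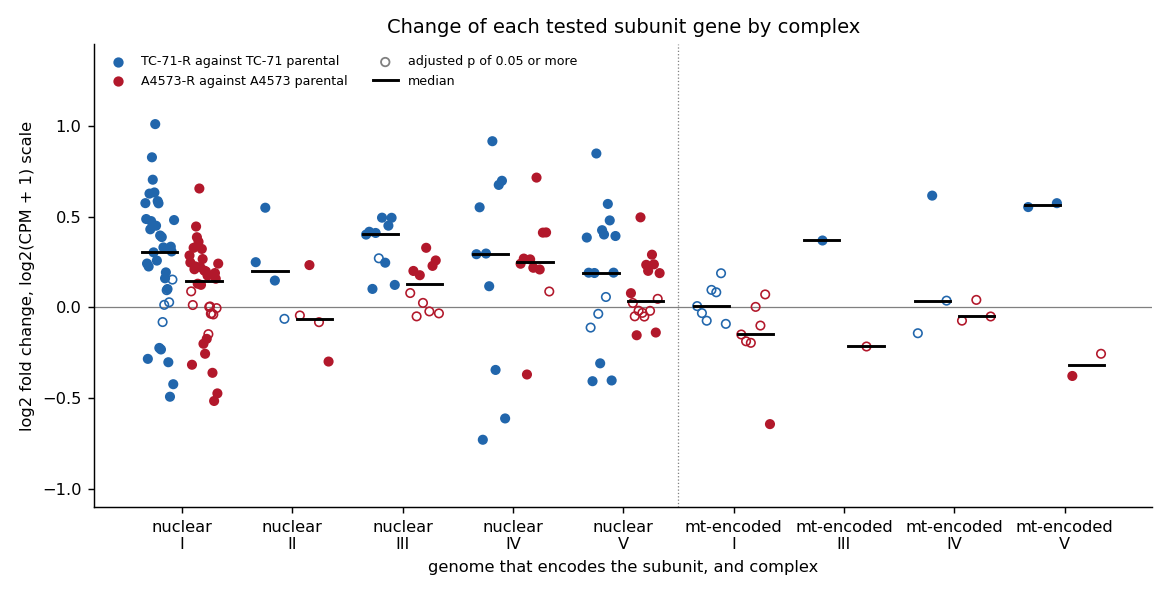
Log2 fold change, on the log2(CPM + 1) scale, of each tested subunit gene in TC-71-R against TC-71 parental (blue) and in A4573-R against A4573 parental (red), by encoding genome and complex. Filled points passed the test, open points did not, and bars are medians. Most filled nuclear points lie above 0, while the mitochondrially encoded genes of complex I are mostly open points around 0.

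Summed over the 82 nuclear genes, the level was 6758, 6680 and 6725 CPM in TC-71-R, against 5721, 5971 and 6003 CPM in TC-71 parental. In A4573-R it was 7292, 7417 and 7775 CPM, against 6923, 7065 and 7051 CPM in A4573 parental. On this scale each resistant line lay above its parent with no overlap, and A4573 libraries lay above TC-71 libraries. The order of the 2 lines depends on the scaling and may not hold under another, and the sums were not rescaled. Mitochondrial genes held 5.08% to 7.78% of named reads in TC-71-R, against 2.61% to 2.95% in A4573 parental. The 13 mitochondrial genes summed to 39859, 46899 and 30313 CPM in TC-71-R and 35351, 32989 and 40054 CPM in TC-71 parental, which overlap. They summed to 15357, 14000 and 16785 CPM in A4573-R and 17389, 16506 and 15767 CPM in A4573 parental, which also overlap. The ratio of the mitochondrial to the nuclear sum does not depend on how libraries are scaled. It averaged 5.81 ± 1.26 in TC-71-R, 6.13 ± 0.575 in TC-71 parental, 2.05 ± 0.144 in A4573-R and 2.36 ± 0.140 in A4573 parental (SD, n = 3 each). In A4573-R every library was below every A4573 parental library, 1.89 to 2.16 against 2.24 to 2.51. TC-71-R and TC-71 parental overlapped, and the sign of their difference (-0.096 on the log2 scale) turned to 0.075 without TC-71-R replicate 3. Between the parents, the log2 ratio was 1.37 higher in TC-71 than in A4573, far beyond the spread between libraries (pooled SD 0.11). As the ratio was set up on the members themselves, it was given no test. More or fewer mitochondria per cell and more or less RNA per mitochondrion cannot be told apart in such libraries.

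**Figure D2:**
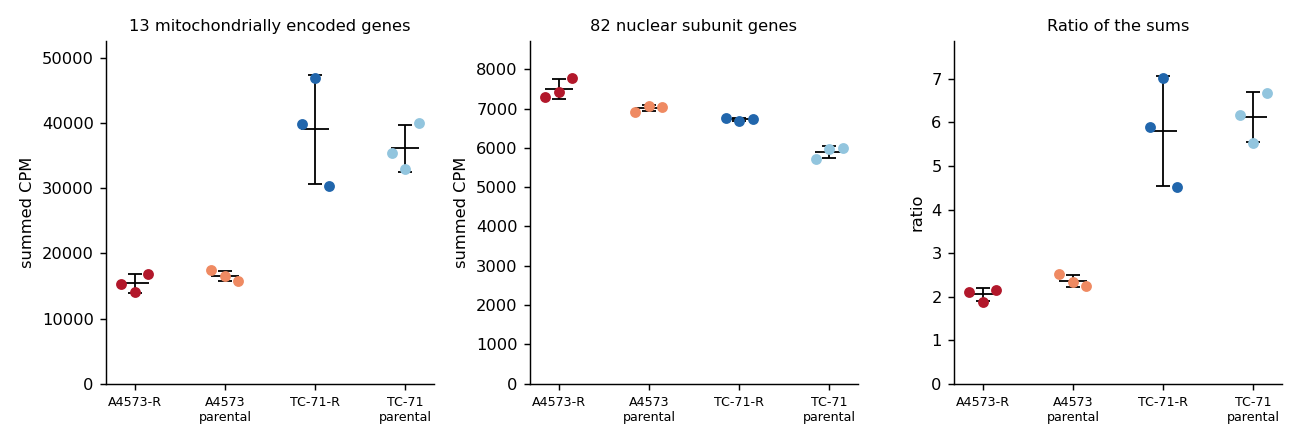
Summed CPM of the 13 mitochondrially encoded genes, summed CPM of the 82 nuclear subunit genes, and their ratio, in each library. Points are libraries, bars the mean ± SD of 3. The nuclear sums of A4573-R and TC-71-R lie above those of their parents, and the ratio is between 4.51 and 7.02 in TC-71 libraries and between 1.89 and 2.51 in A4573 libraries.

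The promoters of nuclear subunit genes are known for binding NRF1 and ETS family factors, regulators of many genes of the pathway. RefSeq windows on GRCh38.p14 were found for 64 of the 82 nuclear genes, 76 windows in all, and the 250 bases before each start were searched on both strands. NDUFS5, NDUFA4, UQCRB and ATP5B were among the 18 genes without a window and were not searched. The NRF1 motif, GCGCA followed by any base and GCGC, was in 18.4% of the 76 windows, against 6.56% of the 22199 windows of protein-coding genes, and the ETS motif, CCGGAAG, was in 23.7%, against 10.7%. Among genes that rose in TC-71-R, 10 of 49 windows held the NRF1 motif and 15 the ETS motif, and among genes that fell there, 1 of 13 and 2 of 13. The 49 windows belong to 42 genes and the 13 to only 8, with 3 of the 13 from ATP5G2 alone. Windows of the same gene are not independent, and the difference between risen and fallen genes was not tested. A match is a run of letters and not a measured binding site. Windows are shown for 3 genes described below that hold a motif, in capitals: SDHA and ATP5C1, which rose, and COX6B1, which fell. SDHA is at chr5:218070-218319 on the plus strand with 4 NRF1 matches, ATP5C1 (now ATP5F1C) at chr10:7787927-7788176 on the plus strand with 1 NRF1 match, and COX6B1 at chr19:35648073-35648322 on the plus strand with 1 ETS match, read on the opposite strand. These 3 windows end inside the genes as GENCODE places them, so the starts used here differ from the gene positions given elsewhere. The 3 windows of ATP5G2 (now ATP5MC2), which fell, held neither motif.
SDHA: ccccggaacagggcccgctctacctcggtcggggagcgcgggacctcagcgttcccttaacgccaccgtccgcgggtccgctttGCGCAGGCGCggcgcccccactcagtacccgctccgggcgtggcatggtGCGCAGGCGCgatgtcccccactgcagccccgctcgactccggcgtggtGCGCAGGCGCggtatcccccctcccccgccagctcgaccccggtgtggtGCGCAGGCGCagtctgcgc
ATP5C1: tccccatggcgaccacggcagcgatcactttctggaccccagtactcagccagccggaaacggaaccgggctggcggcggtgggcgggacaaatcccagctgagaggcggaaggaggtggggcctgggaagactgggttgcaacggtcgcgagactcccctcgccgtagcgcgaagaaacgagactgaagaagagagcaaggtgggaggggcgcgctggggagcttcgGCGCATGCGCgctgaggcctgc
COX6B1: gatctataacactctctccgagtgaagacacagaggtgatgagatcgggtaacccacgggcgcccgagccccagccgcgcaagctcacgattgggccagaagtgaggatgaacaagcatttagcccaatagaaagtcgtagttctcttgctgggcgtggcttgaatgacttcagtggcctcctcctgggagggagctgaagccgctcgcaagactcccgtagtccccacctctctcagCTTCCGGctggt

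Complex I takes electrons from NADH through a peripheral arm into a membrane arm. In TC-71-R, 25 of its 36 nuclear genes rose and 6 fell, with a median log2 fold change of 0.31, and in A4573-R, 20 rose and 7 fell, with a median of 0.14. Called in all were 86.1% and 75%, beside 78.5% and 72.5% of all tested genes. Of all tested genes, 38.8% rose and 39.6% fell in TC-71-R, and 38.3% rose and 34.1% fell in A4573-R. These shares are the background for each complex below. NDUFS5, an accessory subunit of the membrane arm (chr1:39026318-39034636), rose most. It had 125, 119 and 125 CPM in TC-71-R, against 58.6, 62.6 and 60.4 CPM in TC-71 parental. The groups were far apart (log2 fold change 1.01, SE 0.047, adjusted p = 2.3e-11, limma). In A4573-R it rose less, with 142, 144 and 164 CPM in A4573-R, against 119, 121 and 118 CPM in A4573 parental (log2 fold change 0.32, SE 0.047, adjusted p = 1.7e-05). The lowest called change in TC-71-R was in NDUFB9, a membrane arm subunit, with 189, 189 and 185 CPM in TC-71-R, against 255, 282 and 258 CPM in TC-71 parental (log2 fold change -0.49, SE 0.043, adjusted p = 4e-08). NDUFB9 did not pass in A4573-R, with 331, 346 and 366 CPM in A4573-R, against 343, 341 and 348 CPM in A4573 parental (log2 fold change 0.013, SE 0.043, adjusted p = 0.8).

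NDUFS3, a core subunit of the arm that hands electrons to ubiquinone, moved in opposite directions. It had 64.5, 67.02 and 62.4 CPM in TC-71-R, against 41.3, 43.97 and 44.1 CPM in TC-71 parental (log2 fold change 0.57, SE 0.036, adjusted p = 9e-10). In the other line it had 54.5, 54.04 and 53.8 CPM in A4573-R, against 68.2, 68.8 and 65.8 CPM in A4573 parental (log2 fold change -0.32, SE 0.036, adjusted p = 1.4e-06). In neither line did the groups overlap, and limma's test of the difference between the changes gave log2 difference 0.89, SE 0.052, adjusted p = 4.1e-10. NDUFA5, an accessory subunit of the same arm, had the lowest change of the complex in A4573-R, with 37.4, 37.03 and 34.7 CPM in A4573-R, against 48.5, 53.03 and 55.9 CPM in A4573 parental (log2 fold change -0.51, SE 0.048, adjusted p = 1.3e-07), and rose in TC-71-R (0.26). NDUFA10, NDUFV3 and NDUFB2 followed the same pattern, with log2 fold changes of 0.40, 0.33 and 0.23 in TC-71-R and -0.47, -0.36 and -0.26 in A4573-R. NDUFC1, a small membrane arm subunit, went the other way, with 25.4, 23.6 and 24.6 CPM in TC-71-R, against 31.6, 33.4 and 34.6 CPM in TC-71 parental and 44.9, 48.97 and 47.5 CPM in A4573-R, against 40.02, 39.96 and 39.1 CPM in A4573 parental. Its log2 fold change was -0.42 in TC-71-R and 0.24 in A4573-R. NDUFA3, a membrane arm subunit, had the highest change of the complex in A4573-R, with 16.7, 18.1 and 19.2 CPM in A4573-R, against 8.65, 13.1 and 11.8 CPM in A4573 parental (log2 fold change 0.65, SE 0.10, adjusted p = 2.6e-05), and also rose in TC-71-R (0.43). NDUFS8, a core iron-sulfur subunit, and NDUFA12, an accessory subunit, fell in both lines. NDUFS8 changed by -0.28 in TC-71-R and -0.20 in A4573-R, and NDUFA12 by -0.22 and -0.17 (log2). The A4573-R and A4573 parental libraries of NDUFA12 overlapped, and the call in A4573-R was lost without A4573 parental replicate 2 and without A4573-R replicate 1. Exons of NDUFS3, NDUFC1, NDUFB2 and NDUFB9 share 22.4%, 18.6%, 35.9% and 21.0% of their length with other genes. The sources used here do not state whether reads were counted by strand.

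**Figure D3:**
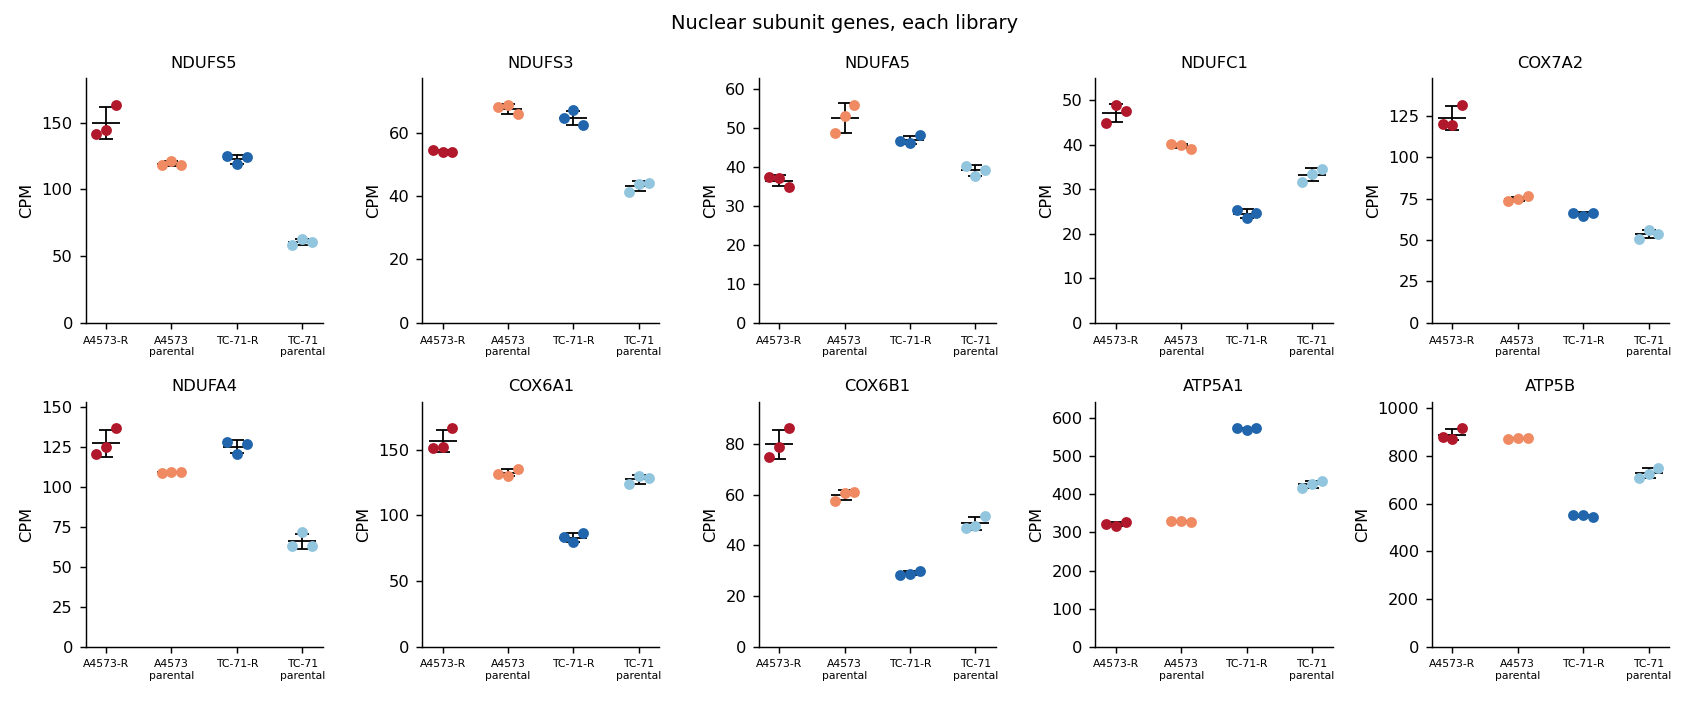
CPM of 10 nuclear subunit genes in each library, chosen after their values were seen. Points are libraries, bars the mean ± SD of 3, axes start at 0. NDUFS5 and NDUFA4 are higher in both resistant lines than in their parents, COX6A1 and COX6B1 are lower in TC-71-R and higher in A4573-R, and in TC-71-R ATP5A1 is higher and ATP5B lower than in TC-71 parental.

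Complex II, the succinate dehydrogenase of the citric acid cycle, had 3 of 4 genes higher in TC-71-R and 1 higher and 1 lower in A4573-R. Of all tested genes, 78.5% were called in TC-71-R and 72.5% in A4573-R. SDHA, its catalytic flavoprotein, had 110.3, 110.4 and 113 CPM in TC-71-R, against 75.7, 76.4 and 74.9 CPM in TC-71 parental (log2 fold change 0.55, SE 0.031, adjusted p = 2.5e-10). In A4573-R it did not pass (97.5, 96.6 and 103 CPM in A4573-R, against 103, 102 and 102 CPM in A4573 parental, log2 fold change -0.044, SE 0.031, adjusted p = 0.22). SDHB, the iron-sulfur subunit, rose in both lines, by 0.15 in TC-71-R and 0.23 in A4573-R on the log2 scale. SDHD, a membrane anchor counted in 2 entries of the files that were summed, fell in A4573-R, with 62.7, 54.9 and 54.4 CPM in A4573-R, against 67.1, 70.95 and 73.8 CPM in A4573 parental (log2 fold change -0.30, SE 0.061, adjusted p = 0.00043), and did not pass in TC-71-R (-0.063).

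Complex III passes electrons from ubiquinol to cytochrome c. In TC-71-R, 9 of its 10 nuclear genes rose and 1 did not pass, with a median of 0.41. The TC-71-R call of UQCR11, 1 of these 9 and of the 31 genes higher in both lines, was lost under 9 alternatives. Among them were scaling over named genes and the fit on the compared groups only. In A4573-R, 5 rose and 5 did not pass, with a median of 0.13. That is 90% called in TC-71-R and 50% in A4573-R, beside 78.5% and 72.5% of all tested genes. UQCRB, a small subunit near the ubiquinone site, had 129, 122 and 116 CPM in TC-71-R, against 85.7, 86.3 and 87.7 CPM in TC-71 parental (log2 fold change 0.49, SE 0.045, adjusted p = 6.7e-08), and rose by 0.18 in A4573-R. UQCRQ, another small subunit, had 36.5, 35.6 and 37.3 CPM in TC-71-R, against 24.5, 26.1 and 26.3 CPM in TC-71 parental (log2 fold change 0.49, SE 0.047, adjusted p = 1.2e-07), and in A4573-R its libraries overlapped those of the parent (0.025). UQCRC2, a core protein, had the highest called change in A4573-R, but its libraries overlapped, with 163, 123 and 126 CPM in A4573-R, against 99.2, 131 and 98.4 CPM in A4573 parental (log2 fold change 0.33, SE 0.13, adjusted p = 0.037). That call was lost under 6 of the alternatives, among them the fits without A4573 parental replicate 1, without A4573 parental replicate 3 and without A4573-R replicate 1. UQCRHL, which rose in TC-71-R (0.45), is a near-identical copy of UQCRH, so reads could be split between them and its value is uncertain.

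Complex IV, cytochrome c oxidase, had genes that moved in opposite directions within 1 line, as complexes I, II and V also did. In TC-71-R, 7 of its 10 tested nuclear genes rose and 3 fell, and in A4573-R 8 rose and 1 fell. That is 100% and 90% called, beside 78.5% and 72.5% of all tested genes. The risen genes in TC-71-R were led by NDUFA4, which had 128, 121 and 127 CPM in TC-71-R, against 63.2, 71.6 and 63.3 CPM in TC-71 parental (log2 fold change 0.91, SE 0.051, adjusted p = 1.9e-10), and rose by 0.22 in A4573-R. COX6C rose in both lines, by 0.67 in TC-71-R and 0.41 in A4573-R, and so did COX8A, by 0.30 and 0.26. Of the exon length of COX8A, 34.5% is shared with another gene. COX7A2, the broadly expressed form of subunit VIIa, had the largest change of any nuclear subunit in A4573-R, with 119.8, 119 and 132 CPM in A4573-R, against 73.6, 74.7 and 76.2 CPM in A4573 parental (log2 fold change 0.71, SE 0.043, adjusted p = 7e-10). It rose less in TC-71-R, with 66.4, 64.7 and 66.04 CPM in TC-71-R, against 50.8, 55.9 and 53.8 CPM in TC-71 parental (log2 fold change 0.29, SE 0.043, adjusted p = 1.3e-05).

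COX6B1, the subunit on the side where cytochrome c docks (chr19:35648223-35658861), fell in TC-71-R. It had 28.3, 28.8 and 29.97 CPM in TC-71-R, against 47.04, 47.5 and 51.8 CPM in TC-71 parental (log2 fold change -0.73, SE 0.051, adjusted p = 2.7e-09). In A4573-R it rose, with 74.9, 78.9 and 86.2 CPM in A4573-R, against 57.5, 60.9 and 61.1 CPM in A4573 parental (log2 fold change 0.41, SE 0.051, adjusted p = 2.9e-06). The groups of each line were apart, and the difference between the changes was the largest of any nuclear subunit (log2 difference -1.14, SE 0.072, adjusted p = 1e-09). COX6A1, the broadly expressed form of subunit VIa (chr12:120438090-120440742), followed it. It had 83.2, 79.8 and 86.2 CPM in TC-71-R, against 124, 130.1 and 128 CPM in TC-71 parental (log2 fold change -0.61, SE 0.041, adjusted p = 1.7e-09). In A4573-R the values were 151, 152 and 166 CPM in A4573-R, against 131, 130.2 and 135 CPM in A4573 parental (log2 fold change 0.24, SE 0.041, adjusted p = 8.1e-05). COX5A, a subunit on the matrix side, fell in both lines, with 50.7, 48.3 and 50.4 CPM in TC-71-R, against 62.4, 63.9 and 63.9 CPM in TC-71 parental and 82.6, 87.3 and 88.1 CPM in A4573-R, against 109.6, 113 and 112 CPM in A4573 parental, or -0.34 in TC-71-R and -0.37 in A4573-R on the log2 scale.

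The tissue-restricted partners of these subunits stayed below the filter. COX7B2 and COX8C were at 0 in every library, and COX6A2 and COX7A1, the muscle forms, reached at most 0.0262 CPM. COX6B2, the testis form of subunit VIb, had 0.738, 0.562 and 0.530 CPM in A4573-R, against 0.106, 0.0466 and 0.0843 CPM in A4573 parental. In TC-71-R and TC-71 parental it had at most 0.131 and 0.111 CPM. It was higher in A4573-R with no overlap, at a level too low to enter the test. AC020922.1 shares 30.9% of the exon length of COX6B2, and whether reads were counted by strand is not stated, so this value is uncertain.

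Complex V joins a catalytic head to a rotor in the membrane. In TC-71-R, 10 of its 16 tested nuclear genes rose and 3 fell, and in A4573-R 7 rose and 2 fell. That is 81.25% called in TC-71-R, near the 78.5% of all tested genes, and 56.25% in A4573-R, below the 72.5% of all tested genes. The head is built from alpha and beta subunits in equal number, and their mRNAs changed in opposite directions in TC-71-R. ATP5A1, the alpha subunit (chr18:46080248-46104334), had 574, 571 and 574 CPM in TC-71-R, against 416, 427 and 436 CPM in TC-71 parental (log2 fold change 0.43, SE 0.031, adjusted p = 4.6e-09). ATP5B, the beta subunit (chr12:56638175-56646068), had 552, 551 and 545 CPM in TC-71-R, against 705, 726 and 747 CPM in TC-71 parental (log2 fold change -0.40, SE 0.036, adjusted p = 4.6e-08). The CPM of ATP5A1 over that of ATP5B was 1.04 to 1.05 in TC-71-R, against 0.583 to 0.590 in TC-71 parental, a within-library ratio that no scaling can move. In A4573-R it was 0.358 to 0.367, against 0.375 to 0.378 in A4573 parental, and neither gene passed there. These 2 genes were paired after their values were seen.

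ATP5C1, the gamma subunit that turns inside the head (chr10:7788129-7807815), had the largest rise of the complex in TC-71-R, with 149, 145 and 149 CPM in TC-71-R, against 78.9, 83.3 and 83.1 CPM in TC-71 parental (log2 fold change 0.85, SE 0.032, adjusted p = 1.7e-12). In A4573-R it did not pass (0.047). ATP5F1, subunit b of the stalk, rose in TC-71-R (0.57) and fell in A4573-R (-0.15), and ATP5J, coupling factor 6, did the same (0.19 and -0.14). Of the exon length of ATP5J, 23.05% is shared with other genes, GABPA among them. Of the 3 genes for the same c subunit of the rotor ring, ATP5G2 had 219.5, 225 and 213 CPM in TC-71-R, against 286, 284 and 302 CPM in TC-71 parental (log2 fold change -0.41, SE 0.037, adjusted p = 7.4e-08). It rose in A4573-R, with 235, 253 and 248 CPM in A4573-R, against 198, 202 and 202 CPM in A4573 parental (log2 fold change 0.29, SE 0.037, adjusted p = 4.6e-06). ATP5G3 rose in both lines, by 0.38 in TC-71-R and 0.23 in A4573-R, and ATP5G1 passed in neither (-0.035 and -0.05). ATP5I, subunit e, had the highest change of the complex in A4573-R, with 64.3, 72.4 and 81.03 CPM in A4573-R, against 49.6, 50.9 and 52.4 CPM in A4573 parental (log2 fold change 0.50, SE 0.058, adjusted p = 1.6e-06), but 61.6% of its exon length overlaps MYL5. ATP5S, now DMAC2L, fell in TC-71-R (-0.31) and did not pass in A4573-R (-0.018).

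Most of the mitochondrially encoded genes did not pass in either line. In TC-71-R, 4 of the 13 rose and 9 did not pass, with a median log2 fold change of 0.083, beside 78.5% of all genes called. In A4573-R, 2 fell (MT-ND1 and MT-ATP8) and 11 did not pass, with a median of -0.15, beside 72.5% called. No mitochondrial gene was called lower in TC-71-R or higher in A4573-R, by limma at an adjusted p (0) or an unadjusted p (0) under 0.05, by edgeR (0) or by DESeq2 (0). The spread between libraries was wider than for nuclear genes, and TC-71-R replicate 3 was the lowest of its group for all 13 genes. The fit shares 1 estimate of spread between the groups, and without that library 4 genes were called lower in A4573-R. Leaving out 1 library at a time gave 1 to 4. All 13 genes lie on M, the mitochondrial chromosome, and every one but MT-ND6 is read from the same strand. A nuclear copy such as MTATP6P1, which is near-identical to MT-ATP6 and changed by 0.59 in TC-71-R and -0.34 in A4573-R (log2), can share reads with them, so their values are uncertain to that extent. The A4573-R call of MTATP6P1 was lost under 6 alternatives, among them DESeq2 and the fits without A4573 parental replicates 1 and 2 and without A4573-R replicates 1 and 2.

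The 4 genes that rose in TC-71-R were MT-CO3, MT-ATP6 and MT-ATP8, which lie next to each other, and MT-CYB. MT-CO3 (M:9207-9990), a core subunit of complex IV, had 3870.5, 4511 and 3117 CPM in TC-71-R, against 2378, 2290.2 and 2778 CPM in TC-71 parental (log2 fold change 0.62, SE 0.11, adjusted p = 7.8e-05). MT-ATP6 (M:8527-9207), a subunit of the proton channel of complex V, had 2927, 3308 and 2232 CPM in TC-71-R, against 1856, 1753 and 2105 CPM in TC-71 parental (log2 fold change 0.55, SE 0.11, adjusted p = 0.00041). For both genes the lowest TC-71-R library was above the highest TC-71 parental library. MT-ATP8 (M:8366-8572) had 496, 523 and 339 CPM in TC-71-R, against 291, 276 and 331 CPM in TC-71 parental (log2 fold change 0.57, SE 0.16, adjusted p = 0.0041), and 22.2% of its length is shared with MT-ATP6. MT-CYB (M:14747-15887), the cytochrome b of complex III, had 3127, 3663 and 2318 CPM in TC-71-R, against 2264, 2110.0 and 2571 CPM in TC-71 parental, with TC-71-R replicate 3 inside the range of the parent (log2 fold change 0.37, SE 0.13, adjusted p = 0.016). The MT-CYB call was lost under 6 of the alternatives, among them the fits without TC-71 parental replicate 2, without TC-71-R replicate 1 and without TC-71-R replicate 2. MT-CO1, also a core subunit of complex IV, had 6456, 8079 and 5144 CPM in TC-71-R, against 7024, 6589 and 7788 CPM in TC-71 parental (log2 fold change -0.14, SE 0.13, adjusted p = 0.32), and its groups overlapped. The 7 complex I genes gave log2 fold changes from -0.090 to 0.19 in TC-71-R, and did not pass.

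**Figure D4:**
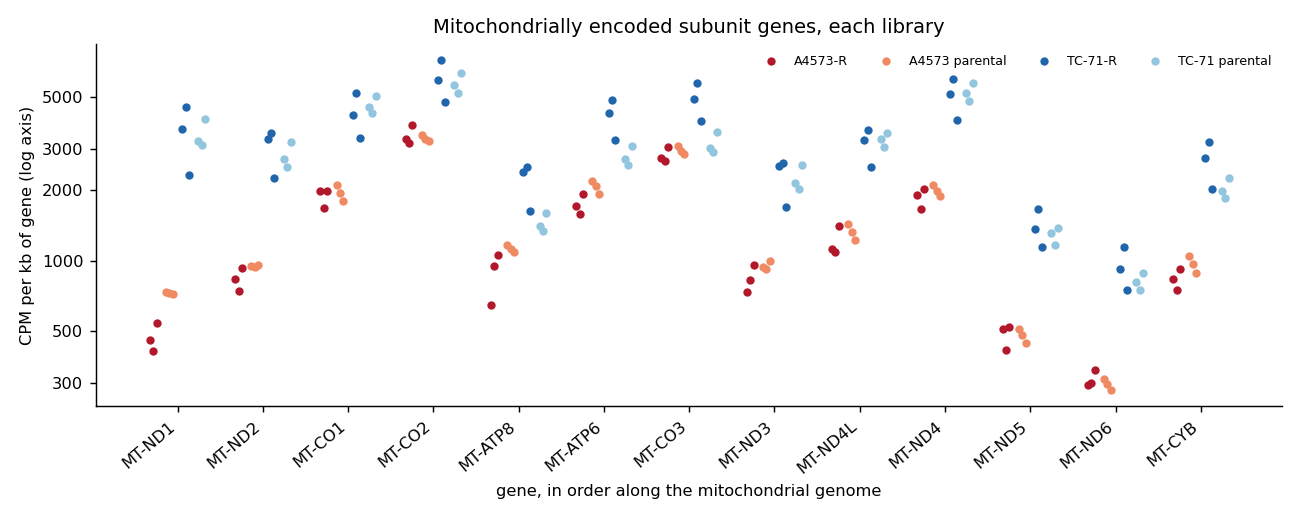
CPM per kb of gene length (log axis) of the 13 mitochondrially encoded genes in order along the mitochondrial genome, each point 1 library, the 4 groups side by side. MT-ATP8, MT-ATP6 and MT-CO3 have all 3 TC-71-R libraries above the TC-71 parental libraries, and MT-ND1 has all A4573-R libraries below the A4573 parental libraries.

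The spread of the total drops out when each gene is taken as a share of the CPM of the 13. MT-CO3 held 9.62% to 10.3% in TC-71-R, against 6.73% to 6.94% in TC-71 parental. MT-ATP6 held 7.05% to 7.36%, against 5.25% to 5.31%, and MT-CYB 7.65% to 7.85%, against 6.40% to 6.42%, in the same groups. The shares of MT-CO1 and MT-ND4 were lower, 16.2% to 17.2% and 17.6% to 18.3% in TC-71-R, against 19.4% to 19.97% and 19.9% to 20.3% in TC-71 parental. None of these 5 shares overlapped between TC-71-R and its parent. Nor did those of MT-ATP8 and MT-ND6, which were higher, and of MT-CO2 and MT-ND4L, which were lower, so this was not particular to the 5. The shares are parts of the same total, so a higher share of some genes lowers that of others. Within complex IV, MT-CO3 over MT-CO1 was 0.558 to 0.606 in TC-71-R, against 0.339 to 0.357 in TC-71 parental, and 0.701 to 0.804 in A4573-R, against 0.745 to 0.808 in A4573 parental. The shares and this ratio were singled out after the values were seen and were given no test. In the same libraries the 2 mitochondrial rRNAs summed to 2851, 3827 and 2252 CPM in TC-71-R, against 6623, 6394 and 7190 CPM in TC-71 parental. Both fell, MT-RNR2 by 1.25 and MT-RNR1 by 0.91 on the log2 scale, with no overlap between the groups. The labels do not state whether polyadenylated RNA was selected, which bears on how much rRNA a library holds. Both rRNA genes lie before MT-ND1 on the same strand.

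In A4573-R, MT-ND1 (M:3307-4262), a core subunit of the membrane arm of complex I, had the lowest log2 fold change of the 13. It had 436, 393 and 517 CPM in A4573-R, against 703, 695 and 691 CPM in A4573 parental (log2 fold change -0.64, SE 0.17, adjusted p = 0.0039). All A4573-R libraries were below all A4573 parental libraries. Its share of the 13 was 2.81% to 3.08% in A4573-R, against 4.04% to 4.38% in A4573 parental, and its CPM over that of its neighbour MT-ND2 was 0.500 to 0.533, against 0.692 to 0.713. The shares of MT-ATP6 and MT-CYB were also lower in A4573-R with no overlap. Those of MT-CO2, MT-ND5 and MT-ND6 were higher with no overlap. MT-ATP8 had 134, 196 and 219 CPM in A4573-R, against 243, 232 and 225 CPM in A4573 parental (log2 fold change -0.38, SE 0.16, adjusted p = 0.046), with no overlap, but that call was lost under 11 of the alternatives, among them the fits without each of the A4573 parental libraries, without A4573-R replicate 1 and without each of the TC-71 parental libraries. The other 11 genes had log2 fold changes from -0.26 to 0.072 in A4573-R and did not pass. MT-ATP6 and MT-ND2 were among them, although their A4573-R libraries, at most 1309 and 969 CPM, all lay below the A4573 parental libraries, at least 1317 and 977 CPM. Over all tested genes, 74.6% did not overlap in this comparison. Tested against each other, the changes of MT-ATP8, MT-ATP6, MT-CO3, MT-ND1 and MT-CYB were higher in TC-71-R than in A4573-R, by 0.95, 0.81, 0.69, 0.61 and 0.59 on the log2 scale, and 8 did not differ past the threshold. The MT-ND1 difference was lost under 12 alternatives, which include leaving out any 1 library other than A4573-R replicate 3, TC-71 parental replicate 3 and TC-71-R replicate 3. Without TC-71-R replicate 3 the count of higher changes was 8 in place of 5.

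**Figure D5:**
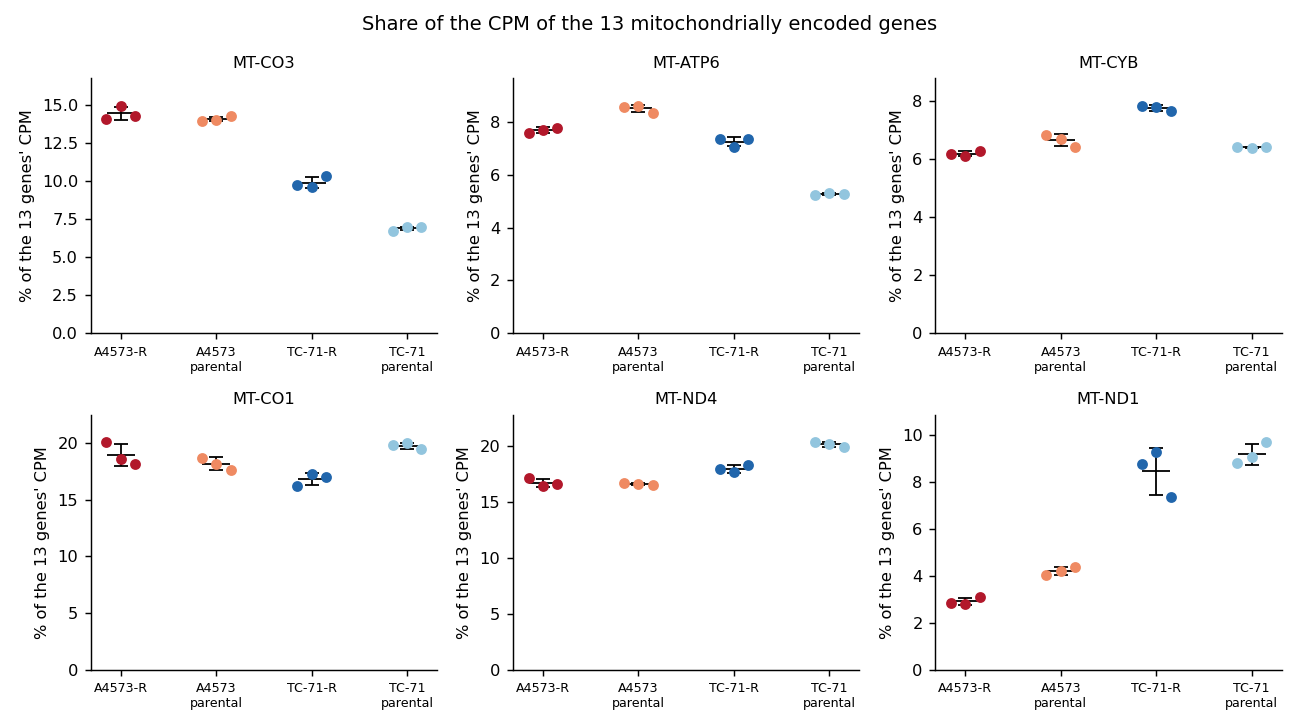
Share of each gene in the summed CPM of the 13 mitochondrially encoded genes, in percent, for 6 genes chosen after their values were seen. Points are libraries, bars the mean ± SD of 3, axes start at 0. MT-CO3, MT-ATP6 and MT-CYB take more in TC-71-R than in TC-71 parental, MT-CO1 and MT-ND4 less, and MT-ND1 takes less in A4573-R than in A4573 parental.

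The parental lines differed in opposite directions for the 2 genomes. In TC-71 parental, 12 of the 13 mitochondrial genes were higher than in A4573 parental and 1 did not pass, with a median log2 difference of 1.24, and 9 were called at 2-fold or more. The smallest of these calls, in MT-ATP8 (log2 difference 0.36), was lost under 12 alternatives, among them edgeR and DESeq2. Of the 76 nuclear genes, 15 were higher and 51 lower, with a median of -0.29. Over all tested genes, 45.9% were higher and 44.1% lower (89.9% called, 30.6% at 2-fold or more), with a median of 0.020. Libraries of the parents did not overlap for 69 of the 76 nuclear and 12 of the 13 mitochondrial genes, beside 92.5% of all tested genes. Scaling over named genes alone, which leaves out the entries without a gene name, moved the median of all genes to 0.091 and gave 18 nuclear genes higher and 49 lower. With the mitochondrial genes left out of the scaling as well, the median was 0.15, with 21 higher and 46 lower. All 7 mitochondrial genes of complex I were at least 2-fold higher. MT-ND1 was furthest, with 3108, 2983 and 3871 CPM in TC-71 parental, against 703, 695 and 691 CPM in A4573 parental (log2 difference 2.24, SE 0.17, adjusted p = 4.9e-09). MT-CO3 was the 1 that did not pass, with 2378, 2290.2 and 2778 CPM in TC-71 parental, against 2425, 2313 and 2242 CPM in A4573 parental (log2 difference 0.089, SE 0.11, adjusted p = 0.44).

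Read per kb, the profile along the mitochondrial genome also differed. MT-CO2 was the highest gene in all 4 groups, with 5969 ± 1215 CPM per kb in TC-71-R, 5755 ± 590 in TC-71 parental, 3452 ± 332 in A4573-R and 3344 ± 88.1 in A4573 parental (SD, n = 3). MT-CO3 came next in both A4573 groups, at 2825 ± 206 CPM per kb in A4573-R and 2968 ± 117 in A4573 parental, with the A4573-R and A4573 parental values within their spread. In TC-71 parental, MT-ND4 (5275 ± 478) was within the spread of MT-CO2, and MT-CO1 (4626 ± 394) was also above MT-CO3 (3166 ± 332), while MT-ND1 (3474 ± 503) and MT-ND4L (3309.5 ± 237) differed from MT-CO3 by less than the SD of MT-CO3. MT-ND6, the gene of the opposite strand, was the lowest per kb in all 4 groups, at 940 ± 198 in TC-71-R, 814 ± 65.2 in TC-71 parental, 312 ± 24.2 in A4573-R and 296 ± 14.8 in A4573 parental.

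Among nuclear genes, all 4 of complex II and 8 of the 10 tested in complex IV were lower in TC-71 parental than in A4573 parental. Of all tested genes, 44.1% were lower and 89.9% were called in this comparison. The largest were NDUFB2, with 27.8, 28.3 and 28.96 CPM in TC-71 parental, against 70.8, 71.5 and 71.2 CPM in A4573 parental (log2 difference -1.30, SE 0.035, adjusted p = 8.2e-15, TC-71 parental minus A4573 parental), and COX6C, with 26.2, 26.8 and 26.3 CPM in TC-71 parental, against 58.6, 58.3 and 59.5 CPM in A4573 parental (log2 difference -1.12, SE 0.037, adjusted p = 8.3e-14). UQCRQ differed by -1.09 and SDHD by -0.65. NDUFS7, a core iron-sulfur subunit of complex I, went the other way, with 43.3, 44.6 and 45.3 CPM in TC-71 parental, against 24.4, 23.1 and 22.9 CPM in A4573 parental (log2 difference 0.89, SE 0.037, adjusted p = 1.7e-12), as did ATP5S (0.79) and UQCR11 (0.28). ATP5L, subunit g of complex V, was lower (-0.78). Exons of NDUFS7 and NDUFB2 share 49.1% and 35.9% of their length with other genes, and those of UQCRQ and ATP5S 20.8% and 20.1%. Whether reads were counted by strand is not stated, so these values are uncertain to that extent.

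The genes that build and supply the complexes are given from lists written from general knowledge. Of 48 assembly factors, 19 rose and 16 fell in TC-71-R, and 10 rose and 23 fell in A4573-R, with medians of 0.010 and -0.077. The shares of all tested genes given above for the same calls, 38.8% higher and 39.6% lower in TC-71-R and 38.3% and 34.1% in A4573-R, are the background for this list and for those that follow. TMEM70, which helps assemble complex V, had 34.4, 33.8 and 36.1 CPM in TC-71-R, against 17.2, 18.4 and 16.6 CPM in TC-71 parental (log2 fold change 0.96, SE 0.048, adjusted p = 5.2e-11). PET100, a complex IV assembly factor, rose in both lines, by 0.84 in TC-71-R and 0.31 in A4573-R. SDHAF4, which helps mature the SDHA flavoprotein, had 14.4, 16.95 and 14.8 CPM in A4573-R, against 4.09, 3.64 and 4.11 CPM in A4573 parental (log2 fold change 1.72, SE 0.065, adjusted p = 4.2e-12). LYRM7, needed for the iron-sulfur protein of complex III, and NDUFAF2, a complex I factor, fell in A4573-R, by 0.89 and 0.78. SDHAF1, for the iron-sulfur clusters of complex II, fell in TC-71-R and rose in A4573-R (-0.63 and 0.43). UQCC1 fell in TC-71-R (-0.46), and CMC2 rose in A4573-R (0.54).

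Of 31 genes that keep, copy, transcribe and process mitochondrial DNA and its RNA, 15 rose and 8 fell in TC-71-R, where 78.5% of all genes were called, and 3 rose and 21 fell in A4573-R, where 72.5% were called. The medians were 0.11 and -0.20. TFAM, which packs mitochondrial DNA and starts its transcription, had 43.6, 41.6 and 42.2 CPM in A4573-R, against 97.6, 100.2 and 106 CPM in A4573 parental (log2 fold change -1.24, SE 0.062, adjusted p = 1.1e-10). The groups were far apart. In the same comparison the 13 mitochondrial mRNAs had a median log2 fold change of -0.15. Of these 13, 10 were below 0, 2 were called lower and 11 did not pass, which does not show that they were unchanged. A link to TFAM was not tested. In TC-71-R TFAM did not pass (0.013). TFB1M, which methylates the small mitochondrial rRNA, had 14.5, 15.9 and 14.5 CPM in A4573-R, against 7.22, 7.34 and 8.08 CPM in A4573 parental (log2 fold change 0.90, SE 0.053, adjusted p = 6.3e-10). SUPV3L1, the helicase that works with PNPT1 in breaking down mitochondrial RNA, fell in A4573-R (-0.81) and did not pass in TC-71-R (0.07), while PNPT1 fell in both (-0.46 in TC-71-R and -0.15 in A4573-R). GRSF1, which binds mitochondrial RNA, had 189, 191 and 190.3 CPM in TC-71-R, against 107, 111 and 111 CPM in TC-71 parental (log2 fold change 0.78, SE 0.035, adjusted p = 1.4e-11), and MGME1, a nuclease of mitochondrial DNA, rose in TC-71-R and fell in A4573-R (0.74 and -0.26). REXO2 fell in both lines, by 0.47 in TC-71-R and 0.52 in A4573-R. HSD17B10, a part of mitochondrial RNase P, rose in A4573-R (0.18), and its log2 fold change of -0.095 in TC-71-R lost its call under 8 alternatives.

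Of 9 tested regulators, 1 rose and 5 fell in TC-71-R, and 2 rose and 4 fell in A4573-R, beside 78.5% and 72.5% of all genes called. NFE2L1, a factor known for the supply of proteasome subunits and not to be confused with NRF1, had 85.96, 80.2 and 86.6 CPM in TC-71-R, against 375, 372 and 379 CPM in TC-71 parental (log2 fold change -2.14, SE 0.038, adjusted p = 6.3e-16), and did not pass in A4573-R (0.068). PPARGC1B, a coactivator of mitochondrial genes, fell in both lines, by 0.76 in TC-71-R and 0.45 in A4573-R, and PPRC1, a related one, fell in A4573-R (-0.57). GABPA, the DNA-binding part of an ETS family factor, was the 1 regulator that rose in TC-71-R (0.25), where its partner GABPB1 fell (-0.38). ESRRA and GABPB1 were the 2 that rose in A4573-R (0.13 and 0.10), and the GABPB1 call there was lost under 11 alternatives, among them the fits without A4573 parental replicates 1 and 2, without A4573-R replicates 1 and 3 and without TC-71 parental replicates 2 and 3.

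Of 24 genes of the citric acid cycle and pyruvate entry, 16 rose and 7 fell in TC-71-R, and 7 rose and 11 fell in A4573-R, beside the same shares of all genes. FH, fumarate hydratase, had 216, 208 and 211 CPM in TC-71-R, against 122, 123 and 122 CPM in TC-71 parental (log2 fold change 0.78, SE 0.03, adjusted p = 1.9e-12). PDK1, a kinase that switches off pyruvate dehydrogenase, had 5.701, 5.63 and 5.495 CPM in TC-71-R, against 11.998, 11.7 and 11.3 CPM in TC-71 parental (log2 fold change -0.94, SE 0.056, adjusted p = 3.8e-10), while its relative PDK2 rose in both lines (0.83 in TC-71-R and 0.52 in A4573-R). IDH3A fell in both lines (-0.57 and -0.63), SUCLG2 rose in TC-71-R and fell in A4573-R (0.32 and -0.75), and PC, pyruvate carboxylase, rose in A4573-R (0.52). Of 9 tested genes of the pathway outside the symbol pattern, 5 rose and 4 fell in TC-71-R (78.5% of all genes called), and 5 rose and 1 fell in A4573-R (72.5% called). NDUFA4L2, a relative of NDUFA4, had 3.38, 2.74 and 3.44 CPM in TC-71-R, against 16.3, 15.4 and 16.9 CPM in TC-71 parental (log2 fold change -2.04, SE 0.084, adjusted p = 5.6e-12), the opposite direction to NDUFA4 itself. ATPIF1, which blocks complex V from running backwards, rose in both lines, by 0.60 in TC-71-R and 0.64 in A4573-R. OXA1L, which inserts mitochondrially made proteins into the membrane, rose in TC-71-R (0.65), and CYCS, cytochrome c, fell there (-0.37). ATPAF1 fell and ATPAF2 rose in A4573-R (-0.37 and 0.52), both assembly factors of complex V.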

How the data were processed

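RNA of 12 libraries was sequenced. The tools named by the authors, per the submitters' processing notes, are STAR 2.4, Trimmomatic, edgeR and HTSeq, on GRCh38. The deposited signal is normalized CPM (counts per 1000000 reads) per gene and library. Each deposited column is a whole multiple of 1 step, within 1.6e-07 of whole numbers, which gave back the authors' read counts. Per file, 5 entries without a gene name, with 30.6% to 42.0% of the reads, were left out, although the authors' scaling counts them. Entries that share a symbol were summed.

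Genes with at least 1 CPM in 3 libraries were tested with limma 3.58.1 in R 4.3.3 on log2(CPM + 1), with 1 mean per group and a variance trend, which understates changes of low genes. P-values were adjusted by Benjamini-Hochberg over 14335 genes, with a threshold of 0.05. Exact tests of 3 against 3 libraries cannot go below p = 0.1 and were not used. The pipeline was tested on simulated data. edgeR 4.0.16 and DESeq2 1.42.0 on the recovered counts were alternatives. The SD in values is between libraries.

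Named genes are the mitochondrial members, per comparison and complex the highest and lowest called nuclear member with at least 5 CPM in the higher group, the isoform genes, and up to 2 called genes per direction from each list. A few outside this rule are marked as chosen after their values were seen. Members and lists were chosen with earlier results of these data known. Gene positions are GENCODE release 29 (GRCh38), and promoter windows are RefSeq on GRCh38.p14. Old ATP5 symbols were matched through RefSeq synonyms.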

Additional observations from a re-analysis of the deposited data

Results flagged for a closer look

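The change in TC-71-R minus the change in A4573-R passed limma's test of that difference for each gene below (adjusted p under 0.05 over all tested genes, of which 78.1% passed). Values are that difference on the log2 scale, and its part in resistance was not tested.

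In 12 named subunit genes the change was called in both lines and in opposite directions. Higher in TC-71-R and lower in A4573-R were ATP5F1 0.72, ATP5J 0.33, MT-ATP8 0.95, NDUFA10 0.87, NDUFA5 0.77, NDUFB2 0.48, NDUFS3 0.89 and NDUFV3 0.69. Lower in TC-71-R and higher in A4573-R were ATP5G2 -0.70, COX6A1 -0.85, COX6B1 -1.14 and NDUFC1 -0.66. The A4573-R call of MT-ATP8, 1 of its opposite calls, was lost under 11 alternatives.

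In 21 other named subunit genes the change was larger or smaller without opposite calls. The difference was above 0 for ATP5A1 0.45, ATP5C1 0.80, ATP5G3 0.15, COX6C 0.26, MT-ATP6 0.81, MT-CO3 0.69, MT-CYB 0.59, MT-ND1 0.61, NDUFA4 0.70, NDUFS5 0.69, SDHA 0.59, SDHD 0.24, UQCRB 0.32, UQCRHL 0.47 and UQCRQ 0.47. It was below 0 for ATP5B -0.43, ATP5I -0.31, ATP5S -0.29, COX7A2 -0.42, NDUFB9 -0.50 and NDUFS7 -0.41. The SDHD difference was lost without A4573 parental replicate 3, without A4573-R replicates 2 and 3 and without TC-71-R replicate 3. Those of ATP5G3 and MT-ND1 were each lost under 12 alternatives.

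Among the genes of the other lists, 9 had opposite calls. Those above 0 were ATPAF1 0.71, GRSF1 0.91, MGME1 1.00, MTATP6P1 0.93, SUCLG2 1.07 and TMEM70 1.18, and those below 0 GABPB1 -0.48, HSD17B10 -0.28 and SDHAF1 -1.06. In 24 more the difference passed without opposite calls. It was above 0 for FH 0.83, GABPA 0.36, LYRM7 0.89, NDUFAF2 0.77, OXA1L 0.65, PDK2 0.30, PET100 0.53, PPRC1 0.58, SUPV3L1 0.88 and TFAM 1.25. It was below 0 for CMC2 -0.26, CYCS -0.34, ESRRA -0.14, MT-RNR1 -0.54, MT-RNR2 -1.21, NDUFA4L2 -2.14, NFE2L1 -2.21, PC -0.39, PDK1 -1.03, PNPT1 -0.31, PPARGC1B -0.31, SDHAF4 -1.44, TFB1M -0.86 and UQCC1 -0.41. The ESRRA difference was lost with median-of-ratios scaling, edgeR and DESeq2. That of MT-RNR1 was lost under 7 alternatives, among them edgeR, DESeq2 and the fits without replicate 3 of each group. The A4573-R call of MTATP6P1, 1 of its opposite calls, was lost under 6 alternatives. So were the A4573-R call of GABPB1 under 11 and the TC-71-R call of HSD17B10 under 8.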

How the results depend on the processing

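The alternatives were other pseudocounts (0.25 and 5), no filter or a mean of at least 5 CPM, 4 scalings over named genes, edgeR and DESeq2 on recovered reads, fits on the compared groups only, a replicate block, and leaving out each library. The counts of nuclear and of mitochondrially encoded calls in the 4 contrasts stayed within 1.5 times of the values given, with these exceptions. Mitochondrial genes lower in A4573-R, 2 in the main test, numbered 1 with no filter, with DESeq2 and with the replicate block, and 1 to 4 when 1 library was left out. Those lower in TC-71-R numbered 0 to 1 when 1 library was left out. Nuclear genes whose change was lower in TC-71-R than in A4573-R, 13 in the main test, numbered 21 with scaling over named genes and 22 with mitochondrial genes also left out of the scaling. Mitochondrial genes whose change was higher in TC-71-R, 5 in the main test, numbered 4 to 8 when 1 library was left out. Scaling over named genes other than the mitochondrial ones, which drops both the unnamed entries and the mitochondrial genes, turned the difference between TC-71 parental and A4573 parental positive for ATP5G3 (0.085), COX6A1 (0.080), GRSF1 (0.079), IDH3A (0.017) and SUPV3L1 (0.013), where the median of all genes was 0.15 (0.091 with only the unnamed entries dropped). The log2 ratio of mitochondrial to nuclear sums ranged from -0.24 to 0.075 in TC-71-R when 1 library was left out. Same-numbered libraries did not deviate together (correlations from -0.097 to 0.026). Low correlations cannot exclude that samples were prepared in pairs, which the labels do not state. With the replicate block, 42 nuclear genes were higher and 11 lower in A4573-R and 56 and 13 in TC-71-R. At this depth counting error is small for the tested members, and COX6B2 and the other untested genes are limited by it.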
